A study of Mus musculus with 24 samples.

Results

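Expression of 9 surfactant and alveolar type 2 (AT2) cell genes was followed in the lungs of mice that carry a TGF-β1 transgene and of wild-type mice. The genes were Sftpc, Sftpa1, Sftpd, Abca3, Lpcat1, Lamp3, Slc34a2, Muc1 and Lyz1. They were chosen by name, and all 9 were found by symbol in the probe annotation, each with 1 probe set, among 13499 genes measured. Total RNA of the right lung lobe was hybridised to 24 whole-transcript arrays, 1 for each mouse title in the labels. Of these mice, 17 carried the transgene (TG) and 7 were wild type (WT). The fibrosis-prone strains were A/J and AKR/J, with 3 TG mice and 1 WT mouse in each, and C57BL/6J, with 2 TG and 2 WT mice. The fibrosis-resistant strains were 129 (S129 in the sample labels), BALB/cJ and C3H, with 3 TG mice and 1 WT mouse in each. Every mouse, WT controls included, drank doxycycline for 2 weeks, the drug that turns the transgene on. The labels number the mice of a group but do not say whether they were littermates, so p-values measure only the spread between these mice. The sources used here do not give the promoter that drives the transgene, nor the age or sex of the mice. The prone and resistant sets follow the series design. A fibrosis code attached to each sample, read by its own key, gives the opposite sets, and with it every prone minus resistant value below changes sign. Values were log2 intensities, so a difference of 1 stands for a 2-fold change.

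AT2 cells are cuboidal cells of the alveolar wall that make pulmonary surfactant, the film of phospholipid and protein that keeps alveoli from collapsing. They build its lipids, pack them with the hydrophobic surfactant proteins into lamellar bodies, secrete them and take them up again, and they also serve as progenitors of the flat alveolar type 1 (AT1) cells. Among the genes, Sftpc, Sftpa1 and Sftpd encode surfactant proteins, Abca3, Lpcat1, Lamp3 and Slc34a2 serve surfactant lipid, lamellar bodies and phosphate transport, and Muc1 and Lyz1 encode an apical mucin and a secreted lysozyme. In whole-lobe RNA, fewer AT2 cells and less RNA per AT2 cell cannot be told apart, and this holds for every value below.

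Promoter sequences were taken from RefSeq's annotation of the mouse genome (GRCm38.p6, the reference strain C57BL/6J) for the members the results turn on, as the 250 bases before the annotated start, read in the direction of the gene. Of the 9 members, 7 matched RefSeq's promoter table, all but Sftpc and Sftpd. Muc1 is shown because it rose in the pooled comparison, Lyz1 because it fell, and Lyz2, its neighbouring paralog, because it did not pass the same test. Abca3 and Lpcat1 are shown because they passed the test as lower in C57BL/6J. Capitals mark CAAG or its reverse complement CTTG, the core bound by NKX2-1, a transcription factor of lung epithelium that acts on surfactant genes. The windows are chr3:89228806-89229055 on the plus strand for Muc1, chr10:117292869-117293118 on the minus strand for Lyz1, chr10:117282273-117282522 on the minus strand for Lyz2, chr17:24351773-24352022 on the plus strand for Abca3 and chr13:73466981-73467230 on the plus strand for Lpcat1.
Muc1: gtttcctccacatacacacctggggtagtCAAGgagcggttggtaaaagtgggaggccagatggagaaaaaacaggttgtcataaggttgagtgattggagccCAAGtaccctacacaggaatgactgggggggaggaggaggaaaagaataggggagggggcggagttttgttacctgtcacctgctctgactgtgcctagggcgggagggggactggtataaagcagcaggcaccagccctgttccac
Lyz1: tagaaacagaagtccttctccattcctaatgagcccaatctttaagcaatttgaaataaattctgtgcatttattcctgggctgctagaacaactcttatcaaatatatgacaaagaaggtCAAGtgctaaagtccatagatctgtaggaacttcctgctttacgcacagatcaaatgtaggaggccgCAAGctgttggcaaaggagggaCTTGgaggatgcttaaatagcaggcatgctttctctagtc
Lyz2: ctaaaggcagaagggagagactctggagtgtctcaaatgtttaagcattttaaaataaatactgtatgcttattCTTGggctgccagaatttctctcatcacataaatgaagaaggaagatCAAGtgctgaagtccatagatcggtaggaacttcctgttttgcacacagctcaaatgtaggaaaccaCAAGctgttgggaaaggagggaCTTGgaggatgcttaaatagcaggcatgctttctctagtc
Abca3: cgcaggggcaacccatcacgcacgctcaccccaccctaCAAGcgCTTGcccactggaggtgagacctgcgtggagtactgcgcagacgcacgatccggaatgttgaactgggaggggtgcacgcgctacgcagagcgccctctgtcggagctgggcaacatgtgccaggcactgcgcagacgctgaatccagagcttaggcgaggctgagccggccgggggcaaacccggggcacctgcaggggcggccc
Lpcat1: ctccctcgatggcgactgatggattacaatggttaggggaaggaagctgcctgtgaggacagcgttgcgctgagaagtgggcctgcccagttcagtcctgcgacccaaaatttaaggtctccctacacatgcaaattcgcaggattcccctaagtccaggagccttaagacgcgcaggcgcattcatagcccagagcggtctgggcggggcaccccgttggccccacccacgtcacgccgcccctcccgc

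Of all 32851 promoter windows in that table, 86.6% held CAAG or CTTG, so the core does not set these windows apart. It occurred 6 times before Sftpa1, 4 times before Lyz2, 3 times before Lyz1, 2 times before Muc1, 2 times before Abca3 and 1 time before Lamp3. No CAAG or CTTG stood in the windows of Lpcat1 and Slc34a2, which says only that these letters are missing there. CAGAC or its reverse complement GTCTG, the box bound by the SMAD proteins of TGF-β signalling, stood in 42.2% of all windows. It was found 2 times before Abca3, 1 time before Lpcat1 and 1 time before Slc34a2, on either strand, and it overlapped 0 CAAG or CTTG cores. The windows of Muc1, Lyz1, Lyz2, Sftpa1 and Lamp3 did not hold it. TATAAA or TTTATA, the letters of a TATA box, stood in 12.4% of all windows, at -31 before Muc1 and at -30 before Sftpa1, counted from the start. Aligned end to end, the Lyz1 and Lyz2 windows shared 200 bases, with 48 mismatched bases and 4 gap bases, an identity of 80.6%. Both held the core at -129, -62 and -40, and Lyz2 alone held another at -176.

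The arrays had medians between 7.76 and 7.83, and the 17 pairs within groups had correlations of 0.9916 to 0.9972 over the genes. All 9 members lay well above the lower quartile of the arrays, which ran from 6.24 to 6.35. The lowest reading of any member was 11.01, for Abca3. With 1 WT mouse in 5 of the 6 strains, the spread was shared over all groups, which takes a single WT mouse to vary as the other mice do. The strains differ in DNA sequence, and a variant under a probe can alter its signal, which bears on levels set across strains and less on TG against WT within a strain. Expression of the transgene was not analysed here.

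Pooled over the 6 strains, 2 of the 9 members were higher in TG lungs, Muc1 and Sftpd, and 1, Lyz1, was lower. Over all 13499 genes, 13.2% were called higher and 13.5% lower (26.7% in either direction), by limma at an adjusted p under 0.05. The median change of the 9 members was -0.01, and that of all genes was -0.00. The other 6 members, among them the most AT2-restricted of the surfactant genes, Sftpc, had changes between -0.09 and 0.09 that did not pass the test.

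Muc1 (probe set 10493474, chromosome 3) encodes a transmembrane mucin of the apical surface of AT2 cells and of other epithelia. Its log2 intensity had a lowest value of 12.55, a median of 12.83 and a highest value of 13.13 in the 17 TG mice, against 12.25, 12.40 and 12.46 in the 7 WT mice. The 2 genotypes did not overlap, and every TG mouse of every strain stood above the highest WT mouse of all strains. The share of all genes separated in this way across strains was not counted. It cannot exceed the 4.02% of genes with TG above WT within all 6 strains. In A/J, Muc1 read 12.85, 13.08 and 12.80 in the TG mice, against 12.46 in the WT mouse. In AKR/J it read 12.79, 12.55 and 12.73 in the TG mice, against 12.40 in the WT mouse. In C57BL/6J it read 12.83 and 12.98 in the TG mice, against 12.40 and 12.30 in the WT mice. The lowest TG reading of all strains was thus in AKR/J, and it still stood above all WT mice. In 129, Muc1 read 13.04, 13.13 and 13.11 in the TG mice, against 12.40 in the WT mouse. In BALB/cJ it read 12.91, 12.69 and 12.96 in the TG mice, against 12.43 in the WT mouse. In C3H it read 12.79, 12.72 and 12.58 in the TG mice, against 12.25 in the WT mouse. The WT mice of the 6 strains lay close together, and the TG mice of 129 lay above all other TG mice but 1 of A/J.

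The difference in Muc1 was 0.48 ± 0.05 on the log2 scale (SE, 17 TG and 7 WT mice), a 1.39-fold higher level with a 95% interval of 1.29 to 1.51 and limma adjusted p = 6.9e-07. TG mice stood above the WT mice within all 6 strains, as did 4.02% of all genes. By strain, the difference was 0.69 ± 0.13 in 129 (adjusted p = 0.0077), 0.55 ± 0.11 in C57BL/6J (adjusted p = 0.0029) and 0.45 ± 0.13 in A/J (adjusted p = 0.026). It was 0.44 ± 0.13 in C3H, 0.43 ± 0.13 in BALB/cJ and 0.29 ± 0.13 in AKR/J, where it did not pass after adjustment (adjusted p of 0.16, 0.10 and 0.32). The 6 strain differences were not shown to differ from one another (moderated F of 1.1, adjusted p = 0.74). The call in A/J was lost without TG mouse 2 of that strain (0.36, adjusted p = 0.064) and without TG mice 2 and 3, the A/J mice that stand apart within their group (0.39 ± 0.15, adjusted p = 0.11).

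Because Muc1 is not confined to AT2 cells, genes of epithelium in general were set beside it. Of 12 listed, 6 were measured, and all 6 were called higher in TG lungs, where 13.2% of all genes were, with a median change of 0.41. Epcam, an adhesion molecule of epithelial cells, was higher by 0.70 ± 0.06 and Spint1, an epithelial protease inhibitor, by 0.45 ± 0.08. Esrp1, a splicing regulator of epithelium, was higher by 0.44 ± 0.05. The mean log2 level of the 6 genes ran from 9.65 to 10.28 in TG mice, against 9.33 to 9.67 in WT mice, and 0 of them lay below the lower quartile of all genes. Their part in the Muc1 difference was not tested.

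**Figure D1:**
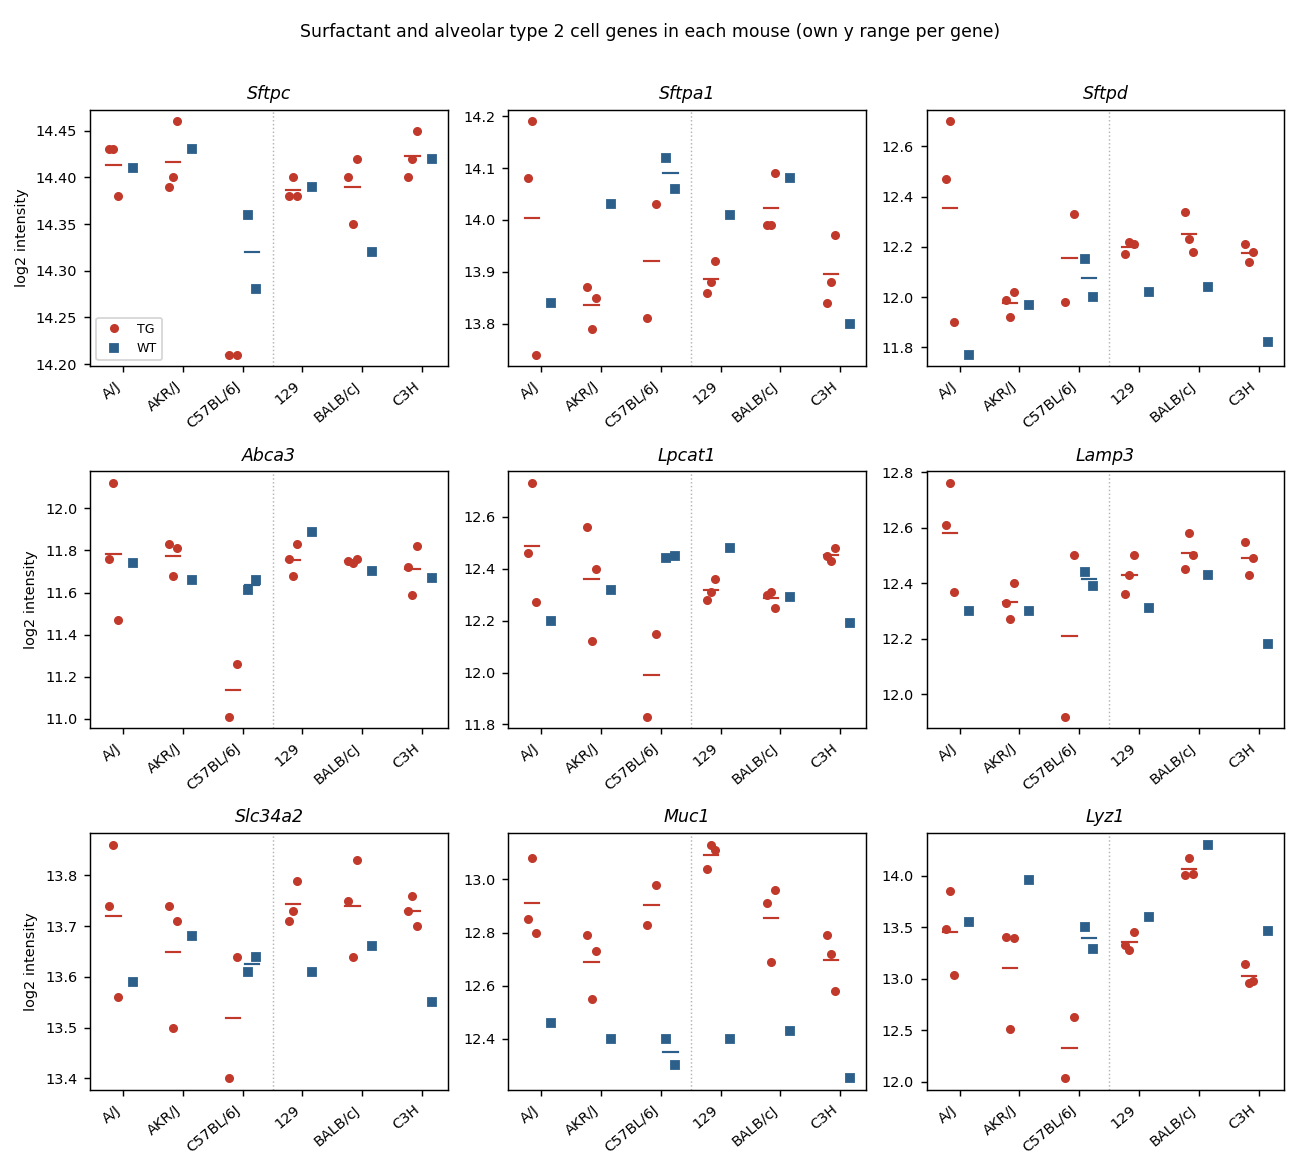
Log2 intensity of each of the 9 genes in each mouse, by strain, with prone strains left of the dotted line and resistant strains right of it. Circles are TG mice, squares WT mice, short bars are group means where a group has more than 1 mouse, and each panel has its own range. Muc1 is higher in every TG mouse than in any WT mouse, and Lyz1, Abca3 and Lpcat1 have their lowest readings in TG mice of C57BL/6J.

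Among the surfactant proteins, Sftpc (probe set 10421387, chromosome 14) encodes surfactant protein C, a hydrophobic peptide made by AT2 cells. It read from 14.21 to 14.46 with a median of 14.40 in TG mice, against 14.28 to 14.43 with a median of 14.39 in WT mice. These readings stand close to the highest value of the whole table, 14.75, and how far they were limited by the top of the scale was not tested. The difference was -0.01 ± 0.03 (95% interval -0.07 to 0.04, limma adjusted p = 0.80). The lowest readings were the 14.21 and 14.21 of the TG mice of C57BL/6J, against 14.36 and 14.28 in the WT mice of that strain, a difference of -0.11 ± 0.06 that did not pass (adjusted p = 0.27).

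Sftpa1 (probe set 10414202, chromosome 14) encodes surfactant protein A, a collectin that binds microbes and surfactant lipid. It read from 13.74 to 14.19 with a median of 13.88 in TG mice, against 13.80 to 14.12 with a median of 14.03 in WT mice. The genotypes overlapped, with all TG mice below WT in 3 strains (AKR/J, C57BL/6J and 129), all above in C3H, and a mixture in A/J and BALB/cJ. All TG mice stood below WT in at least 3 strains for 29.7% of all genes. The difference was -0.05 ± 0.05 (95% interval -0.16 to 0.06, limma adjusted p = 0.53). Sftpa1 also read high on the scale, and how far the top of the scale limited it was not tested.

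Sftpd (probe set 10419096, chromosome 14) encodes surfactant protein D, a collectin that also takes part in surfactant turnover. It read from 11.90 to 12.70 with a mean of 12.19 ± 0.20 in TG mice (SD, n = 17), against 11.77 to 12.15 with a mean of 11.97 ± 0.13 in WT mice (SD, n = 7). Single mice were spread most in A/J, with 12.47, 12.70 and 11.90 in the TG mice, against 11.77 in the WT mouse. In C3H it read 12.21, 12.14 and 12.18 in the TG mice, against 11.82 in the WT mouse. All TG mice stood above WT in A/J, 129, BALB/cJ and C3H, whereas the genotypes overlapped in AKR/J and C57BL/6J. A separation upward in at least 4 strains was seen in 16.2% of all genes. Pooled over strains, Sftpd was higher by 0.23 ± 0.08, a 1.17-fold difference with a 95% interval of 1.04 to 1.32 (limma adjusted p = 0.037). By strain it passed in none, at 0.58 ± 0.20 in A/J (adjusted p = 0.055), 0.35 ± 0.20 in C3H (0.63), 0.21 ± 0.20 in BALB/cJ (0.70), 0.18 ± 0.20 in 129 (0.72), 0.08 ± 0.17 in C57BL/6J (0.83) and 0.01 ± 0.20 in AKR/J (0.99). The pooled call was lost without any of 8 mice (0.16, adjusted p = 0.17, without the WT mouse of A/J), namely TG mouse 1 of A/J, TG mouse 1 of BALB/cJ, TG mouse 2 and WT mouse 2 of C57BL/6J and the WT mice of A/J, 129, BALB/cJ and C3H. It was 0.22 ± 0.06 (adjusted p = 0.0098) without TG mice 2 and 3 of A/J, the mice at opposite ends of their group.

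None of the members that serve lamellar bodies, surfactant lipid or phosphate transport passed the test in the pooled comparison. Abca3 (probe set 10442396, chromosome 17) encodes the transporter that carries phospholipid into lamellar bodies. It read from 11.01 to 12.12 with a median of 11.75 in TG mice, against 11.61 to 11.89 with a median of 11.67 in WT mice, a difference of -0.09 ± 0.08 (95% interval -0.25 to 0.07, adjusted p = 0.44). Lpcat1 (probe set 10406031, chromosome 13) encodes the acyltransferase that makes the disaturated phosphatidylcholine of surfactant. It read from 11.83 to 12.73 with a median of 12.31 in TG mice, against 12.19 to 12.48 with a median of 12.32 in WT mice, a difference of -0.03 ± 0.08 (95% interval -0.19 to 0.14, adjusted p = 0.84). For both genes the WT mice lay inside the range of the TG mice.

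Lamp3 (probe set 10438435, chromosome 16) encodes a membrane protein of lamellar bodies that mature dendritic cells make too. It read from 11.92 to 12.76 with a median of 12.45 in TG mice, against 12.18 to 12.44 with a median of 12.31 in WT mice, a difference of 0.09 ± 0.07 (95% interval -0.06 to 0.23, adjusted p = 0.39). All TG mice stood above the 1 WT mouse in A/J, 129, BALB/cJ and C3H, in BALB/cJ by 12.45 against 12.43. Such a separation upward in at least 4 strains was seen in 16.2% of all genes. The lowest reading of all mice, 11.92, was TG mouse 1 of C57BL/6J, and without it the pooled difference was 0.15 ± 0.05 (adjusted p = 0.023). Of 12 listed genes of mature dendritic cells, 6 were measured, with Socs2, a cytokine signalling inhibitor, higher by 0.30 ± 0.04 and Ccr7, the receptor that leads these cells to lymph nodes, lower by 0.58 on the log2 scale (-0.58 ± 0.10). The mean level of these 6 genes ran from 9.14 to 9.52 in TG mice, against 9.29 to 9.66 in WT mice, and their part in the Lamp3 values was not tested.

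Slc34a2 (probe set 10521892, chromosome 5) encodes the sodium phosphate cotransporter of AT2 cells, which clears phosphate released from surfactant. It read from 13.40 to 13.86 with a median of 13.73 in TG mice, against 13.55 to 13.68 with a median of 13.61 in WT mice. The WT mice again lay inside the range of the TG mice. The difference was 0.05 ± 0.05 (95% interval -0.05 to 0.15, limma adjusted p = 0.46). Slc34a2 also read high on the scale, and how far the top of the scale limited it was not tested.

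Lyz1 (probe set 10372652, chromosome 10) encodes a lysozyme, an enzyme that cleaves bacterial cell walls and that mouse AT2 cells and Paneth cells secrete. It had a lowest reading of 12.03, a median of 13.33 and a highest reading of 14.17 in TG mice, against 13.29, 13.55 and 14.30 in WT mice. The ranges overlapped across strains, since the strains themselves differed widely. In A/J, Lyz1 read 13.48, 13.85 and 13.04 in the TG mice, against 13.55 in the WT mouse. In AKR/J it read 13.41, 12.51 and 13.40 in the TG mice, against 13.96 in the WT mouse. In C57BL/6J it read 12.03 and 12.63 in the TG mice, against 13.50 and 13.29 in the WT mice. Among the prone strains, only A/J had a TG mouse above its WT mouse. In 129, Lyz1 read 13.33, 13.28 and 13.45 in the TG mice, against 13.60 in the WT mouse. In BALB/cJ it read 14.01, 14.17 and 14.02 in the TG mice, against 14.30 in the WT mouse. In C3H it read 13.14, 12.96 and 12.98 in the TG mice, against 13.46 in the WT mouse. All TG mice stood below WT in 5 of 6 strains, as in 8.88% of all genes for at least 5 strains.

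Pooled over strains, Lyz1 fell by 0.52 on the log2 scale (-0.52 ± 0.13), a 1.43-fold lower level with limma adjusted p = 0.0059. The WT mean exceeded the TG mean in every strain, by least in A/J (-0.09 ± 0.31, adjusted p = 0.89) and by most in C57BL/6J (-1.06 ± 0.27, adjusted p = 0.012). It was -0.85 ± 0.31 in AKR/J (adjusted p = 0.19), -0.43 ± 0.31 in C3H (0.77), -0.25 ± 0.31 in 129 (0.76) and -0.23 ± 0.31 in BALB/cJ (0.82). Without the strain C57BL/6J the pooled difference was -0.37 (adjusted p = 0.06), so the call did not hold in the other 5 strains alone.

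Lyz2, a lysozyme gene of macrophages and AT2 cells that lies beside Lyz1, is no member and was set next to it because their sequences are alike. It read from 13.59 to 14.10 with a median of 13.78 in TG mice, against 13.74 to 13.89 with a median of 13.80 in WT mice. The difference in Lyz2 was -0.03 ± 0.05 (adjusted p = 0.70). Lyz1 minus Lyz2, taken per mouse, had a lowest value of -1.59, a median of -0.51 and a highest value of 0.41 in TG mice, against -0.48, -0.28 and 0.54 in WT mice. The mean difference of TG minus WT over the strains was -0.46, below 0 in 6 of 6 strains. It is given as a description with no test, since the pair was set side by side after Lyz1 had been called and Lyz2 had not. Probes of paralogs can share sequence, so which copy a probe measured is uncertain. Both probe sets read close to the highest value of the table, 14.75, and how far that limited either of them was not tested.

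**Figure D2:**
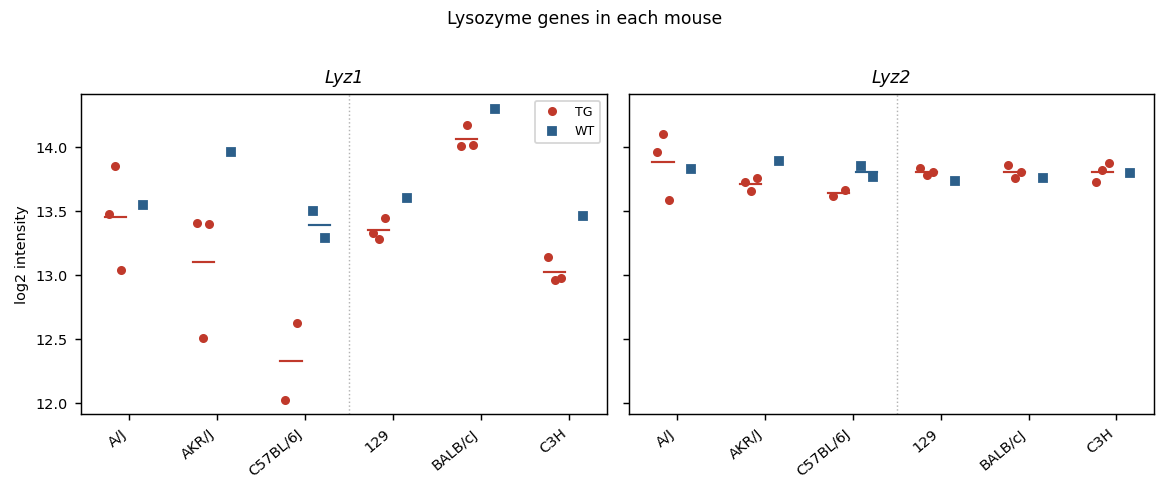
Log2 intensity of Lyz1 and Lyz2 in each mouse by strain, on a shared axis, with circles for TG mice, squares for WT mice and short bars for group means. Lyz1 runs from 12.03 to 14.17 in TG mice and from 13.29 to 14.30 in WT mice, whereas Lyz2 runs from 13.59 to 14.10 in TG mice and from 13.74 to 13.89 in WT mice.

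Alveolar macrophage genes were read beside the lysozymes. Of 16 listed, 8 were measured, and Siglecf, Itgax and Pparg, which define the cell, were not analysed here. The lipid exporter gene Abcg1 was lower (-0.39 ± 0.10) and the lysosomal gene Cd68 higher (0.32 ± 0.10), and the other 6 did not pass. The mean level of the 8 genes ran from 9.40 to 10.58 in TG mice, against 9.59 to 10.41 in WT mice. In A/J, TG mouse 3 had the lowest macrophage mean of all mice, 9.40, and the lowest Lyz1 of its group. Their part in the Lyz1 difference was not tested.

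Among the 6 strains, C57BL/6J had the most members called. In that strain 1 member was higher, Muc1, and 3 were lower, Abca3, Lpcat1 and Lyz1, where 6.96% of all genes were called higher and 7.39% lower (14.3% in either direction). Abca3 read 11.01 and 11.26 in the TG mice of C57BL/6J, against 11.61 and 11.66 in the WT mice. The readings did not overlap, and the difference was -0.50 ± 0.14, a 1.41-fold lower level (limma adjusted p = 0.028). Lpcat1 read 11.83 and 12.15 in the TG mice of C57BL/6J, against 12.44 and 12.45 in the WT mice. Here too the readings did not overlap, with a difference of -0.45 ± 0.14, a 1.37-fold lower level (adjusted p = 0.032). With only 2 mice against 2, both TG mice lay below both WT mice for 30.6% of all genes and for 5 of the 9 members, which also included Lyz1 and, not called, Sftpc and Sftpa1. Lamp3 (-0.21 ± 0.14, adjusted p = 0.39), Slc34a2 (-0.11 ± 0.10, 0.57), Sftpa1 (-0.17 ± 0.11, 0.38) and Sftpd (0.08 ± 0.17, 0.83) did not pass in C57BL/6J. The median of the 9 members was -0.17 there, against -0.01 for all genes.

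These C57BL/6J calls rest on 4 mice. Without TG mouse 1, Abca3 was at -0.38 (adjusted p = 0.23), Lpcat1 at -0.29 (0.31) and Lyz1 at -0.76 (0.17). Without WT mouse 1 they were at -0.53 (0.085), -0.46 (0.11) and -0.96 (0.088), and without WT mouse 2 Abca3 was at -0.47 (0.14) and Lpcat1 at -0.45 (0.14). Without TG mouse 2, Lamp3 was called lower (-0.50, adjusted p = 0.019). Muc1 kept its call without any of the 4.

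In A/J and in 129, Muc1 was the sole member called, where 14.9% of all genes in A/J and 2.95% in 129 were called in either direction. In AKR/J, BALB/cJ and C3H 0 members were called, where 2.11%, 2.26% and 0.822% of genes were. At the looser threshold of an unadjusted limma p under 0.05, Muc1 passed in all 3 of these strains (0.036, 0.0042 and 0.0031). Lyz1 passed it in AKR/J (0.013). The shares of genes above are for adjusted p, and the share at the looser threshold is not given here. Member medians were 0.16 in A/J, 0.01 in AKR/J, 0.00 in 129, 0.07 in BALB/cJ and 0.18 in C3H.

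The test for a TG effect that depends on strain called 0 of the 9 members, where 1.34% of all genes passed. By limma, Lpcat1 came closest (moderated F of 3.7, adjusted p = 0.23), followed by Abca3 (F of 2.3, adjusted p = 0.43). A contrast of C57BL/6J with the mean of the other strains, added after the strain values were seen, also called 0 members, where 0.807% of genes passed. In that limma contrast Lpcat1 was at -0.54 ± 0.15 (adjusted p = 0.12), Abca3 at -0.52 ± 0.16 (adjusted p = 0.16), Lyz1 at -0.69 ± 0.30 (adjusted p = 0.35) and Lamp3 at -0.37 ± 0.16 (adjusted p = 0.34). The lower Abca3 and Lpcat1 of C57BL/6J were therefore not shown to differ from their changes in the other strains, although single settings crossed the threshold. Lpcat1 passed with array weights (adjusted p = 0.043), Abca3 without TG mouse 3 of A/J (0.042) or without TG mice 2 and 3 of A/J (0.034), and Lamp3 without TG mouse 2 of C57BL/6J (0.032).

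**Figure D3:**
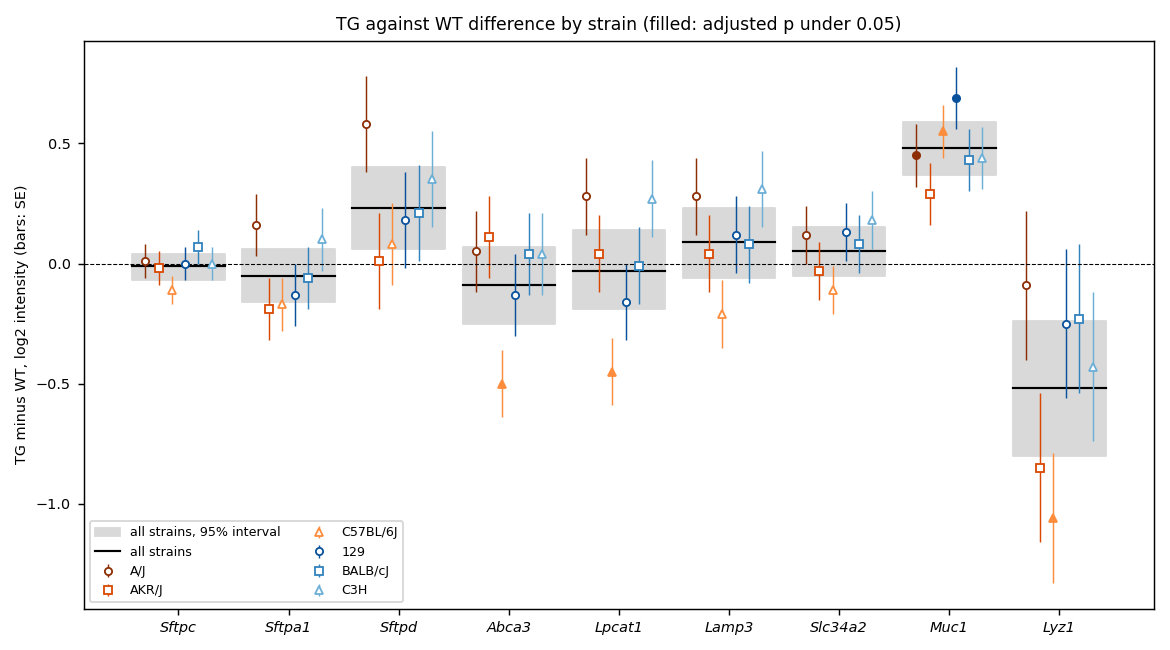
Difference TG minus WT in log2 intensity for each gene in each strain (points with bars of 1 SE) and pooled over strains (black line, with a grey band for the 95% interval). Filled points have an adjusted p under 0.05. Muc1 is above 0 in all 6 strains and Lyz1 below 0 in all 6, and Abca3 and Lpcat1 are filled in C57BL/6J, at -0.50 and -0.45.

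The study set fibrosis-prone against fibrosis-resistant strains. Within the prone strains, Muc1 was higher (0.43 ± 0.07, limma adjusted p = 0.00027) and Lyz1 lower (-0.67 ± 0.17, adjusted p = 0.0079), 2 of 9 members where 23.5% of all genes were called. Within the resistant strains, Muc1 was higher (0.52 ± 0.07, adjusted p = 0.00027), 1 of 9 members where 10.7% of genes were called. Lyz1 was at -0.30 ± 0.18 there (adjusted p = 0.32). Sftpd was at 0.23 ± 0.11 in the prone strains (adjusted p = 0.16) and at 0.25 ± 0.11 in the resistant strains (0.19). Without TG mouse 3 of A/J it was called in the prone strains (0.30, adjusted p = 0.0031) and, through the shared spread alone, in the resistant strains (0.25, adjusted p = 0.024). The test of the difference between both effects called 0 members, where 0.474% of genes passed, and 0 members had an unadjusted p under 0.05. It was -0.09 ± 0.10 for Muc1 (95% interval -0.31 to 0.13) and -0.37 ± 0.25 for Lyz1 (95% interval -0.89 to 0.15). The intervals of the other 7 reached no lower than -0.41 and no higher than 0.31.

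Among TG mice alone, Lyz1 was lower in prone than in resistant strains, the sole member called, where 11.1% of all genes were. It read from 12.03 to 13.85 with a median of 13.22 in the 8 prone TG mice, against 12.96 to 14.17 with a median of 13.33 in the 9 resistant TG mice. The ranges overlapped, and the difference of strain means was -0.52 ± 0.13 (limma adjusted p = 0.016). Without TG mouse 1 of C57BL/6J it was -0.42 (adjusted p = 0.082). With the 6 strain means as the unit the value stayed at -0.52 ± 0.35 and the adjusted p was 1, so the comparison with mice as the unit speaks of these 6 strains alone. Among WT mice, 0 members were called, where 0.741% of genes were, and Lyz1 was at -0.15 ± 0.21 (adjusted p = 0.88).

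Levels in TG mice differed between strains for 5 of the 9 members, where 31.4% of all genes passed. They were Lyz1 (moderated F of 11.5, adjusted p = 0.00097), Abca3 (6.6, 0.0092), Muc1 (5.4, 0.018), Sftpc (4.1, 0.043) and Lpcat1 (3.9, 0.049). In order of the TG mean, Lyz1 was at 14.07 ± 0.09 in BALB/cJ, 13.46 ± 0.41 in A/J, 13.35 ± 0.09 in 129, 13.10 ± 0.52 in AKR/J, 13.03 ± 0.10 in C3H and 12.33 ± 0.43 in C57BL/6J (SD, n = 3 each and n = 2 in C57BL/6J). The BALB/cJ mice stood above all A/J mice, each neighbouring pair of strains from A/J to C3H overlapped, and both C57BL/6J mice lay below the lowest C3H mouse. Muc1 was at 13.09 ± 0.05 in 129, 12.91 ± 0.15 in A/J, 12.91 ± 0.11 in C57BL/6J, 12.85 ± 0.14 in BALB/cJ, 12.70 ± 0.11 in C3H and 12.69 ± 0.12 in AKR/J. Each of these neighbours overlapped in the mice they held. Abca3 was at 11.78 ± 0.33 in A/J, 11.77 ± 0.08 in AKR/J, 11.76 ± 0.08 in 129, 11.75 ± 0.01 in BALB/cJ, 11.71 ± 0.11 in C3H and 11.14 ± 0.17 in C57BL/6J. Its first 5 strains overlapped, and C57BL/6J lay below them all. Several of these calls changed with the setting. Under quantile normalisation, Lpcat1 was not called (adjusted p = 0.052), and with the replicate block neither Sftpc nor Lpcat1 was (0.095 and 0.072). Sftpc ranked 2 among the genes in every mouse, so quantile normalisation gives it the same value in every array. That setting therefore cannot test the strain call of Sftpc. The call of Sftpc was lost without any 1 of 16 of the 24 mice and that of Lpcat1 without any 1 of 14, each with its highest adjusted p without TG mouse 1 of C57BL/6J (0.22 and 0.30). The call of Abca3 was lost without that mouse as well (adjusted p = 0.18), and the call of Muc1 without TG mouse 2 (0.055) or TG mouse 3 (0.050) of 129.

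Within groups, deviations of pairs of members correlated at a median of 0.74 over 19 mice, from 0.15 to 0.93. Sftpc followed the others least, from 0.15 with Lpcat1 to 0.50 with Sftpa1. Deviations sum to 0 in each group, so the 19 mice hold only 12 free values per gene. The same correlation for pairs of genes outside the members was not computed, so a shift of whole arrays cannot be told apart from one of the members. In some mice of the prone strains, all members stood on one side of the group mean. In A/J, TG mouse 2 stood above its group mean in 9 of 9 members, by a median of 0.19, and TG mouse 3 stood below in 9 of 9, by a median of -0.22. For Sftpd the deviations were 0.35 in mouse 2 and -0.46 in mouse 3, and for Lyz1 0.40 and -0.42. In AKR/J, TG mouse 2 stood below in 9 of 9 members, with a median of -0.09 and with Lyz1 at -0.60. TG mouse 3 of AKR/J stood above in 9 of 9, by a median of 0.04. In C57BL/6J, TG mouse 2 stood above TG mouse 1 in all members but Sftpc, where both read 14.21, with a median of 0.12 on either side of their mean. The mice of 129, BALB/cJ and C3H showed smaller deviations, with medians between -0.03 and 0.04. In none of these mice did all 9 members lie on the same side of the group mean.

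Other genes moved in the same A/J mice. In TG mouse 2 and in TG mouse 3 of A/J, the median deviation was 0.45 and -0.49 over 8 alveolar macrophage genes, and 0.20 and -0.19 over 20 other AT2 marker genes. It was 0.08 and -0.03 over 16 AT1 genes, -0.26 and 0.18 over 12 neutrophil and monocyte genes and 0.00 and 0.11 over 9 endothelial genes. Their part in the shared deviations of the members was not tested. Without these 2 mice, Muc1 was at 0.47 ± 0.05 and Lyz1 at -0.54 ± 0.13 in the pooled comparison.

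**Figure D4:**
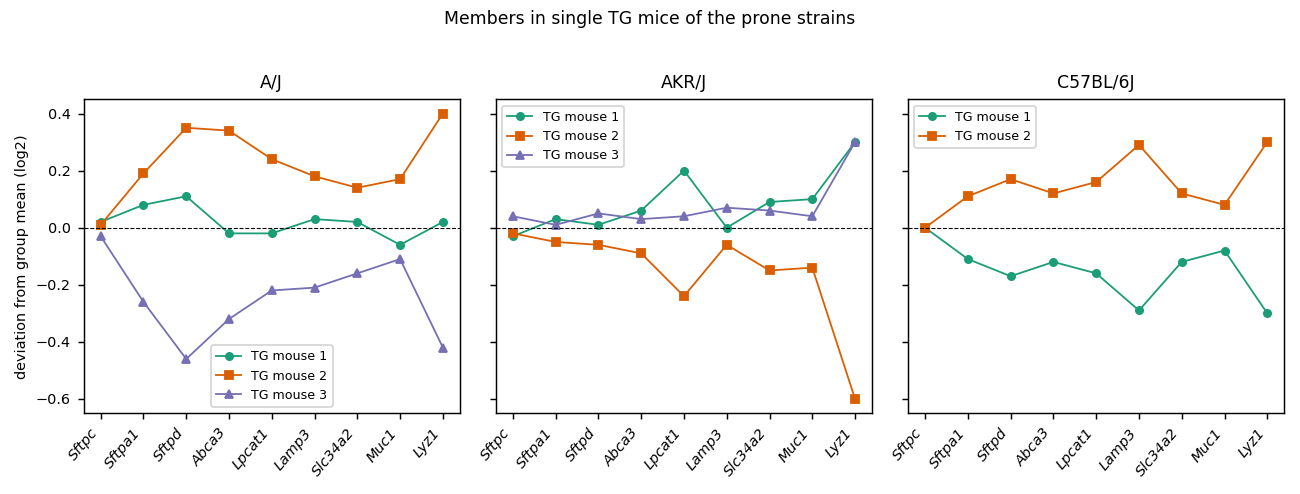
Deviation of each TG mouse of the 3 prone strains from the mean of its group, in log2 intensity, for the 9 genes. In A/J, mouse 2 lies above 0 and mouse 3 below 0 for all genes, in AKR/J mouse 2 lies below 0 for all genes, and the pair of C57BL/6J mirror each other because a group of 2 has mirrored deviations.

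The profiles most like those of the members were sought over all 13499 genes by Pearson r over the 24 mice, a description in which the mice share genotype, strain and array scaling. Etv5, a transcription factor that maintains AT2 cells, was nearest to Lpcat1 (r = 0.89), Slc34a2 (0.83) and Lamp3 (0.81). Unlike the members, Etv5 had 2 probe sets. Only the brighter one, 10363901, was read, so its values and likeness rest on that probe set alone. Etv5 read 10.14 and 10.60 in the TG mice of C57BL/6J, against 10.79 and 10.86 in the WT mice. The difference was -0.46 ± 0.15 (limma adjusted p = 0.046), a call not checked without single mice. Of all genes, 7.39% were called lower in C57BL/6J. Etv5 was named for its likeness to Lpcat1, Slc34a2 and Lamp3 over these same mice, so its call there is no separate evidence. Over all strains Etv5 was at 0.02 ± 0.09. For Abca3 the nearest were Sgpp2 (0.85), Cenpb (0.82) and Enpep (0.81), for Sftpd they were Pip5k1b (0.89), Mlc1 (0.87) and Lgi3 (0.84), and for Sftpa1 Tmem163 (0.82), C6 (0.81) and Acot7 (0.80). For Sftpc they were Il25 (0.85), Alad (0.83) and Lpgat1 (0.82). Muc1 was most like Prnp, Ror1 and Cd63, each at 0.92 and each higher in TG lungs (0.65 ± 0.06, 0.97 ± 0.08 and 0.69 ± 0.06). Muc1 itself splits TG from WT mice, so higher TG levels follow from how these genes were picked and are no separate result. Lyz1 had looser neighbours, Pgap6 (0.79), Car8 (0.76) and Ubr1 (0.75). Over the median profile of all 9 members which the members themselves make up, the nearest genes were Lamp3 (0.89), Slc34a2 (0.89), Etv5 (0.84), Abcd3 (0.82) and Sftpd (0.82), of which Etv5 and Abcd3 are not members.

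Other genes listed as markers of AT2 cells did not share the members' median of -0.01. Of 30 listed, 20 were measured, 13 were higher in TG lungs and 2 lower, with a median change of 0.30. Over all genes, 13.2% were called higher and 13.5% lower, the shares that belong beside each pooled list count below as well. The largest were Lrg1, a secreted glycoprotein that acts on TGF-β signalling in vessels (1.56 ± 0.13, adjusted p = 2.3e-08), and Itih4, an inter-alpha-trypsin inhibitor chain (1.49 ± 0.11, adjusted p = 2.0e-09). Complement C5, encoded by Hc, was higher by 0.70 ± 0.12 and Sdc1, a heparan sulfate proteoglycan of epithelial surfaces, by 0.67 ± 0.06. Lower were Cxcl15, the chemokine lungkine (-0.27 ± 0.08), and Acot1, an acyl-CoA thioesterase (-0.30 ± 0.10), both named after their values were seen, as the 2 that fell. The mean level of the 20 genes ran from 11.31 to 11.81 in TG mice, against 11.00 to 11.28 in WT mice. The ranges came close, with 11.31 in TG mouse 2 of AKR/J and 11.28 in WT mouse 1 of C57BL/6J. How often the mean of other genes separates the genotypes was not counted. Several of these genes are made by other cells as well, so the list is not specific to AT2 cells.

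Regulators of AT2 cells were mostly higher. Of 20 listed, 17 were measured, 9 were higher and 2 lower, with a median of 0.18. Sox9, a factor of lung epithelial progenitors, was higher by 0.63 ± 0.13 (adjusted p = 0.0013) and Cebpd by 0.39 ± 0.10 (adjusted p = 0.0061). Tcf21, a transcription factor of lung mesenchyme despite its place in the list, was lower (-0.68 ± 0.09, adjusted p = 9.8e-06), as was the growth factor receptor gene Egfr (-0.31 ± 0.06, adjusted p = 0.00089). Nkx2-1, chosen after its values were seen because its core is marked in the promoters above, was higher by 0.20 ± 0.05 (adjusted p = 0.0029).

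Genes of surfactant lipid synthesis, storage and clearance moved in both directions. Of 37 listed, 25 were measured, 6 were higher and 7 lower, with a median of 0.04. Acoxl, an acyl-CoA oxidase-like gene, was lower by far the most in this list (-2.24 ± 0.23, adjusted p = 3.6e-07). Also lower were Fabp5, a fatty acid binding protein (-0.62 ± 0.13), and Elovl6, an elongase of long fatty acids (-0.59 ± 0.09). Csf2rb, a chain of the GM-CSF receptor through which macrophages clear surfactant, was higher by 0.43 ± 0.12. Sftpb, Napsa and Ctsh, which encode surfactant protein B and proteases that process it, were not analysed here.

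Neighbouring epithelial states gave other values. Of 20 AT1 genes, 16 were measured, 3 were higher and 2 lower, with a median of -0.04. Krt7, a keratin, was at 0.47 ± 0.08, and the type IV collagen chain genes Col4a3 and Col4a4 at 0.33 ± 0.06 and 0.20 ± 0.05. Lower were Lmo7 (-0.26 ± 0.08) and the growth factor gene Vegfa (-0.13 ± 0.04, named after its value was seen). The strains differed in their counts, with 1 AT1 gene higher and 8 lower in A/J (median -0.26), and 5 higher and 0 lower in AKR/J (median 0.36). Over all genes, 14.9% were called in either direction in A/J and 2.11% in AKR/J. Both sets of counts rest on 1 WT mouse per strain. No difference between these strains was tested for the list. Of 12 genes of the transitional state between AT2 and AT1 cells, 10 were measured, 5 were higher and 1 lower, with a median of 0.38. The called genes included Itgb6, an integrin subunit that activates latent TGF-β (1.48 ± 0.11), Sfn, the stress-induced protein 14-3-3 sigma (1.14 ± 0.14), and the keratins Krt8 (0.71 ± 0.07) and Krt18 (0.60 ± 0.10). Of 15 club and goblet cell genes, 11 were measured, 1 was higher and 6 lower, with a median of -0.34 and with Gabrp, a GABA receptor subunit, at -1.24 ± 0.10. Of 14 neutrophil and monocyte genes, 12 were measured, 6 were higher and 0 lower. The 6 were Ms4a7 (1.04 ± 0.12), Vcan, Fcgr1 and the complement genes C1qa, C1qb and C1qc, and which cells made them was not tested. The neutrophil genes S100a8, S100a9, Csf3r, Cxcr2, Ly6g and Retnlg did not pass, with changes between -0.27 and 0.18. The names of genes outside the 4 largest were added after their values were seen. Of 12 collagen and fibroblast genes, 11 were measured, 7 were higher and 2 lower, with Lox, a collagen crosslinking enzyme, at 1.23 ± 0.13. Of 12 endothelial genes, 9 were measured, 0 were higher and 7 lower, with Ednrb, an endothelin receptor, at -0.85 ± 0.14. No difference between these lists and the 9 members was tested.

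**Figure D5:**
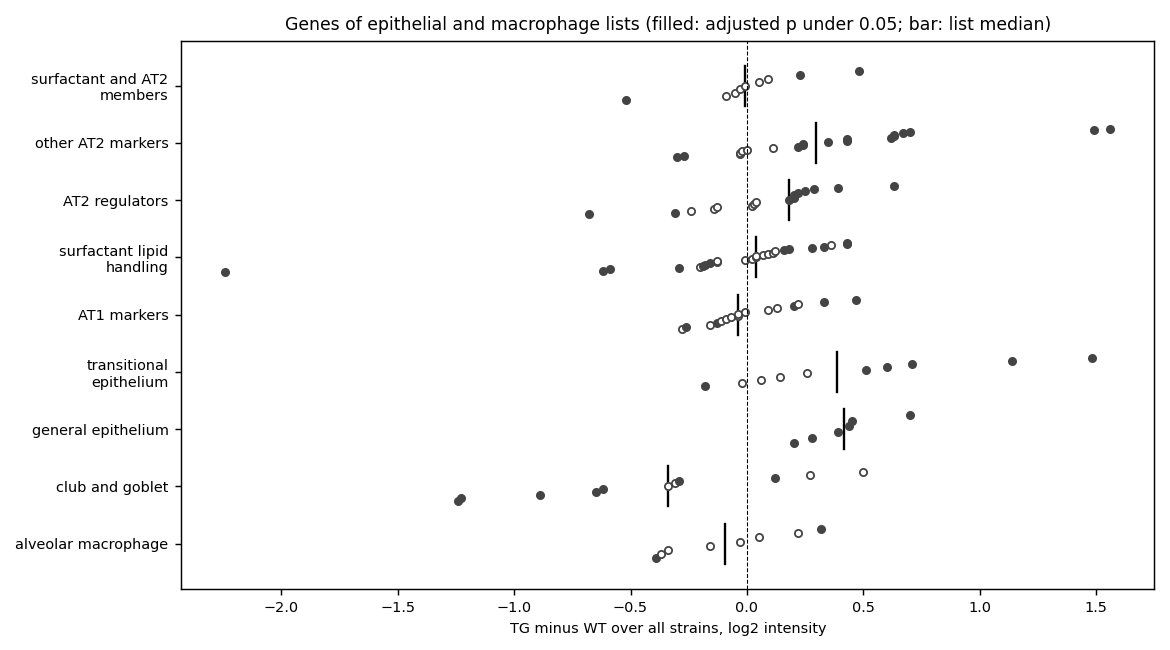
Difference TG minus WT in log2 intensity, pooled over strains, for the measured genes of 9 lists, with 1 point for each gene, filled where the adjusted p is under 0.05, and a bar at the median of the list. The members lie around 0 (median -0.01) with Muc1 at 0.48 and Lyz1 at -0.52, and the other AT2 markers have a median of 0.30.

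In C57BL/6J, where Abca3 and Lpcat1 were lower, the 12 other lists were read beside the 6.96% of all genes called higher and 7.39% called lower. Among lists of AT2 cells, surfactant lipid genes were higher in 0 and lower in 5 of 25 (median -0.09), other AT2 markers higher in 5 and lower in 2 of 20 (median 0.11) and AT2 regulators higher in 3 and lower in 4 of 17 (median -0.00). In other epithelium, AT1 genes were higher in 1 and lower in 3 of 16 (median -0.20), transitional genes higher in 4 and lower in 1 of 10 (median 0.25), club and goblet genes higher in 0 and lower in 5 of 11 (median -0.35), and general epithelial genes higher in 3 and lower in 0 of 6 (median 0.35). Alveolar macrophage genes were called in 0 of 8 (median -0.00), mature dendritic cell genes were higher in 1 and lower in 1 of 6 (median -0.05), and neutrophil and monocyte genes were higher in 5 and lower in 0 of 12 (median 0.01). Endothelial genes were higher in 0 and lower in 6 of 9 (median -0.36), and collagen and fibroblast genes higher in 6 and lower in 1 of 11 (median 0.36). Their part in the C57BL/6J values of Abca3 and Lpcat1 was not tested.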

How the data were processed

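The values are the authors' deposited intensities per probe set, read here as log2 from their range of 3.41 to 14.75. The table as used here had 25285 probe sets and 24 columns. The array software, background correction, normalisation and log base were not given in the sources used here. Of the probe sets, 14539 carried 1 gene symbol, 781 several and 9964 none in the platform annotation, and 1 was left out for missing values. Symbols were checked against RefSeq (14480 matched, 0 changed). For each of the 13499 genes, the probe set of highest mean over 24 arrays was kept. This table covers some chromosomes only in part, so genes such as Sftpb were not analysed here.

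TG against WT over all strains was fitted with limma 3.58.1 (R 4.3.3) with strain as a term, and all other contrasts with 12 group means and 1 shared spread. P-values are two-sided, with Benjamini-Hochberg adjustment over all genes and a threshold of 0.05. The fits were tested on simulated data. Other steps used Python 3.11.15, pandas 2.3.3, numpy 2.4.6, scipy 1.17.1, matplotlib 3.10.9 and Biopython 1.88. The members and gene lists were chosen with earlier results of these data known. Named genes were all 9 members, up to 4 called genes of largest change per list, and the 3 profiles nearest to each member (5 for their median). The number of arrays limits the precision. Mouse numbers were checked for pairing in C57BL/6J, the one strain with 2 pairs. Deviations of same-numbered mice correlated at 0.06 over 13499 genes. This rests on the 2 pairs of that strain alone and cannot exclude pairing or shared litters. Numbers were used here only to name mice. Alternatives were quantile normalisation, median centring, a filter on dim genes, the mean of probe sets, trend and robust variance, array weights, a replicate block, each mouse or strain left out, the mean of 6 strain effects and strain means as the unit. A contrast of C57BL/6J with the other strains, Lyz1 minus Lyz2, and leaving out TG mice 2 and 3 of A/J were added after seeing the data.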

Additional observations from a re-analysis of the deposited data

How the results depend on the processing

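A result was compared with an alternative 1798 times, in part as a count of genes or members called. Of those counts, 108 were classed as moved and 860 were not. A count has no sign, nor has an F test, so neither could reverse. Among called differences with a sign, 0 reversed. For the members' own calls and pooled values, 765 comparisons kept their side of the threshold, 63 lost a call and 2 gained one. Of 232 values that were not called, 7 changed sign. Muc1 kept its pooled call in all settings, at 0.44 to 0.51 without single mice. Lyz1 lay at -0.60 to -0.43 without single mice and lost its call without the strain C57BL/6J (-0.37, adjusted p = 0.06). Sftpd lay at 0.16 to 0.27 without single mice and lost its call with the replicate block (0.24, adjusted p = 0.062) and without the strain 129 (0.077), BALB/cJ (0.081) or C3H (0.12). The causes of these changes were not tested. Of the 9 members, 2 were called in A/J under quantile normalisation, the filter on dim genes and array weights, against 1 otherwise, since Sftpd passed there (adjusted p of 0.034, 0.047 and 0.0069).

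Counts of all genes called moved by over 1.5 times as follows. With array weights they were 635 in 129 (398 otherwise), 429 in AKR/J (285), 618 in BALB/cJ (305), 289 for the difference prone minus resistant (64), 193 for WT prone against resistant (100), 210 for C57BL/6J minus the other strains (109) and 586 for strain dependence (181). With the replicate block they were 31 in C3H (111), 14 for the difference, 40 for C57BL/6J minus the others and 98 for strain dependence. With strain means as the unit they were 1 for the difference and 0 for TG prone against resistant (1503), where 0 members were called. Without TG mice 2 and 3 of A/J they were 268 for the difference, 153 for WT prone against resistant and 373 for strain dependence. Members called without these 2 mice were 2 in resistant strains (1 otherwise), 2 for TG prone against resistant (1) and 1 for C57BL/6J minus the others (0), as with array weights (1). For strain differences among TG mice, 3 members were called under quantile normalisation and 3 with the replicate block, against 5, with Sftpc and Lpcat1 lost in both. The loss of Sftpc under quantile normalisation was fixed by its constant rank and tests nothing.

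Without single mice, genes called ranged from 2955 to 3682 over all strains, 1575 to 2204 in A/J, 167 to 369 in AKR/J, 903 to 2127 in C57BL/6J, 226 to 507 in 129, 142 to 436 in BALB/cJ and 16 to 137 in C3H. They ranged from 1821 to 3336 in prone and 632 to 1602 in resistant strains, 6 to 425 for their difference, 965 to 1628 for TG and 46 to 254 for WT prone against resistant, 5 to 201 for C57BL/6J minus the others and 66 to 350 for strain dependence. Members called ranged from 2 to 4 over all strains, 0 to 3 in A/J, 1 to 5 in C57BL/6J, 2 to 3 in prone and 1 to 2 in resistant strains, 0 to 2 for TG prone against resistant, 0 to 1 for C57BL/6J minus the others and 2 to 7 for strain differences. The lowest counts of genes came without TG mouse 3 of 129 (226), TG mouse 1 of AKR/J (167), TG mouse 1 of BALB/cJ (142), TG mouse 2 of C3H (16), TG mouse 1 of C57BL/6J (903), the WT mouse of A/J for prone strains (1821) and the WT mouse of 129 for resistant strains (632). For the difference the lowest count came without the WT mouse of 129 or A/J (6) and the highest without that of AKR/J (425). With 1 WT mouse in 5 strains, single-strain values rest on a shared spread, and Sftpc lies near the top of the scale.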
